A study of Mus musculus with 64 samples.

Results

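The transcripts of 10 scavenger receptors and border macrophage receptors were measured in retinal microglia sorted from mice before and after delivery of adeno-associated virus (AAV) to the eye. The members were chosen by gene symbol: Cd36, Msr1, Cd163, Mrc1, Stab1, Lyve1, Scarb1, Scarb2, Marco and Cd5l, and all 10 were among the 25239 genes of the batch-corrected count table. All mice were Cx3cr1CreER:R26-tdTomato +/- heterozygotes on C57BL/6J, in which Cre is driven by the Cx3cr1 promoter and tamoxifen eye drops, followed by a washout, switch on the red protein tdTomato. Naive eyes were not injected. The other eyes received 1e10 genome copies of AAV2 by intravitreal injection (IVT) and were collected at day 12 or day 28. This AAV2 carried a CMV promoter, no transgene, a WPRE and the io2 sequence, which was designed to inhibit the DNA sensor TLR9. The libraries analysed here held no vehicle-injected group, so the injection and the vector cannot be told apart.

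Each library came from 600 live tdTomato-high cells of 1 retina, at 3, 9 or 18 months of age, from females or males, which gave 18 groups of 2 to 4 libraries. Of the 62 libraries analysed, 19 were naive, 22 were from day 12 and 21 were from day 28, and only 9-month-old naive males had 2 libraries. Libraries held 1468478 to 9836173 counts (median 4188992). Levels are given as counts per 1000000 counts of the library (CPM). The floor of 3 counts was worth 0.305 to 2.04 CPM depending on the library, and it covers counting error only. The reporter marks cells that recombined under Cx3cr1-driven Cre at the time of the tamoxifen drops. Other macrophages of the eye that recombined then could fall in the same gate. All 10 microglia markers examined were above 3 counts in most libraries of each day, and their summed level ran from 32555 to 60315 CPM in naive libraries, from 8210 to 36291 CPM at day 12 and from 16572 to 46940 CPM at day 28.

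Scavenger receptors are surface or lysosomal proteins that bind modified lipoproteins, dying cells and microbial products, and they feed macrophages with lipid and debris. In the central nervous system, microglia fill the parenchyma, while border macrophages lie along vessels and in the meninges, and in the eye along the ciliary body and the retinal vasculature. Border macrophages are told from microglia by Mrc1, Cd163, Lyve1 and, in part, Stab1, whereas Cd36 and Msr1 are best known from lipid-laden and inflammatory macrophages.

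The upstream sequence of 4 members is shown, chosen as the members with a RefSeq entry that rose (Cd36, Scarb2) or fell (Mrc1, Cd163) in the clearest way after AAV. Each is the 250 bases before the annotated start on GRCm38.p6, written 5′ to 3′ along the gene's own strand, at chr5:17835897-17836146 (minus strand) for Cd36, chr5:92505658-92505907 (minus strand) for Scarb2, chr2:14229164-14229413 (plus strand) for Mrc1 and chr6:124304401-124304650 (plus strand) for Cd163. Capitals mark matches to any of 4 motifs on either strand.
Cd36: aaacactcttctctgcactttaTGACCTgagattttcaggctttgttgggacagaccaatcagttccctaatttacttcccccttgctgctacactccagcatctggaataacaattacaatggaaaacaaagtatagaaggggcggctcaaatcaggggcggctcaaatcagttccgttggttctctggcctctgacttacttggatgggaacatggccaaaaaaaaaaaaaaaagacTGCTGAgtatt
Scarb2: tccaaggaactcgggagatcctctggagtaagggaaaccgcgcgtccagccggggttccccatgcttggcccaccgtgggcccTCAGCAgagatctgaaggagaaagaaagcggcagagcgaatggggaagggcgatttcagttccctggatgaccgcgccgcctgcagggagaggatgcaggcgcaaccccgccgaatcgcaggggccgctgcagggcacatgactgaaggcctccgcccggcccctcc
Mrc1: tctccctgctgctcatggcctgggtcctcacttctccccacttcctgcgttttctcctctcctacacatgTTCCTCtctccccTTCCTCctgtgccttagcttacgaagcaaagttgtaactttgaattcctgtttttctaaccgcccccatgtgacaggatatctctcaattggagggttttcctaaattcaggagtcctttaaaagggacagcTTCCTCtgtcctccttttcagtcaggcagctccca
Cd163: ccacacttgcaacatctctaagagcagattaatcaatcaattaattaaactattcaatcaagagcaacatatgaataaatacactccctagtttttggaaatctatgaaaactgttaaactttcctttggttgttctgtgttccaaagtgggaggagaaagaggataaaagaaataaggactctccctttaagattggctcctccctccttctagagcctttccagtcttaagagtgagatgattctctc
The motifs searched were GAGGAA (the core of PU.1-type ETS sites), AGGTCA (a nuclear receptor half-site), TGCTGA (a MAF half-site) and GAAA, any 2 bases, GAAA (the interferon-stimulated response element), and no matches overlapped in these 4 windows.

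The Mrc1 window held GAGGAA 3 times on the opposite strand, at 175 to 180, 162 to 167 and 30 to 35 bases before the start, and GAGGAA was present in 23.3% of the 32851 RefSeq promoters of this length. The Cd36 window held AGGTCA on the opposite strand at 223 to 228 bases before the start, a motif in 14.02% of promoters, and TGCTGA at 6 to 11 bases before it, a motif in 16.1%. TGCTGA was also matched on the opposite strand of the Scarb2 window at 162 to 167 bases before the start. None of the 4 motifs was in the Cd163 window, and the interferon-stimulated response element, found in 2.98% of promoters, was in none of the 7 member windows available (those of Stab1, Marco and Cd5l besides the 4 printed). The RefSeq starts of Cd36, Scarb2 and Mrc1 lie inside the longer gene spans that GENCODE gives, so other start sites of these genes are not covered. A match is a description of the letters, not of a bound site.

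On GRCm38, GENCODE places the class B receptor genes Cd36 at chr5:17781690-17888801, Scarb1 at chr5:125277087-125341094 and Scarb2 at chr5:92441314-92506833, and the class A receptor genes Msr1 at chr8:39581685-39642673 and Marco at chr1:120474538-120505024, all on the minus strand. Of the genes that mark border macrophages, Mrc1 is at chr2:14229392-14332057 and Cd163 at chr6:124304656-124330527, both on the plus strand, while Stab1 is at chr14:31139013-31168641 and Lyve1 at chr7:110850607-110863239, both on the minus strand. Cd5l is at chr3:87357881-87371073 on the plus strand. Reads were counted over the exons of each gene.

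The receptors differed widely in level before injection. In CPM per kilobase of exon, a scale that allows genes to be compared, the naive medians ran from Scarb2 at 33.3, through Msr1 at 7.71, Scarb1 at 7.47, Mrc1 at 6.87, Stab1 at 5.34 and Cd36 at 5.08, down to Lyve1 at 0.706 and Cd163 at 0.606. Marco and Cd5l had a naive median of 0. The 5 receptors from Msr1 to Cd36 in that order had overlapping ranges among the 19 naive libraries, and Msr1 reached 26.7 in its highest library while Scarb2 began at 26.6 in its lowest, so neighbours in this order did not separate beyond their spread. At day 12 the order changed: the median of Cd36 stood at 104 on the same scale, above Scarb2 at 53.1, while Mrc1 stood at 0.614. At day 28 the median was 28.8 for Cd36, 40.2 for Scarb2 and 0.634 for Mrc1.

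**Figure D1:**
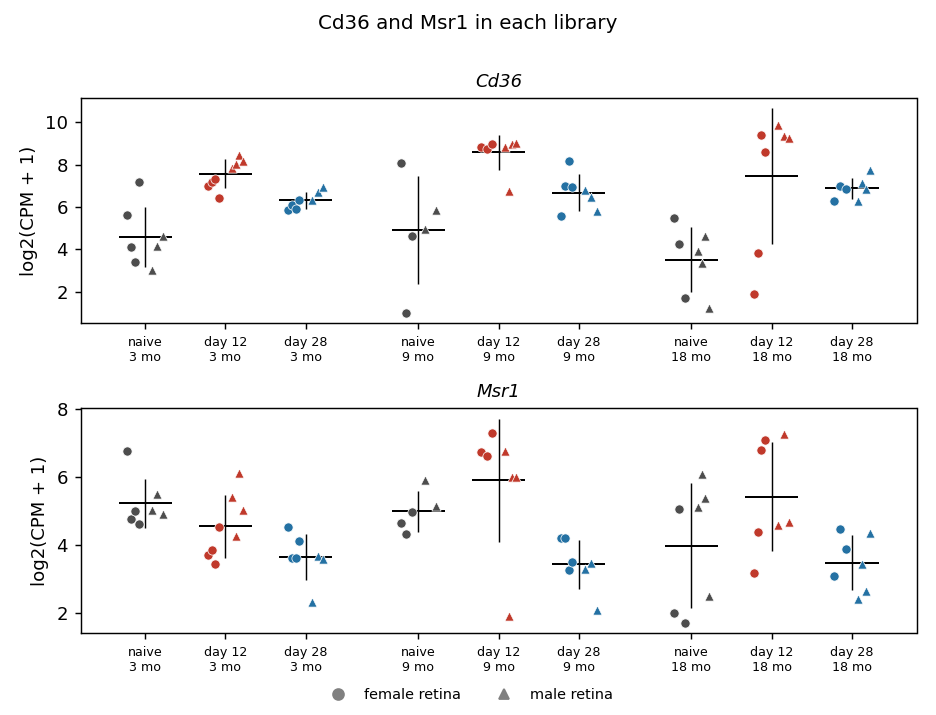
Level of Cd36 and Msr1 in each library, as log2(CPM + 1), by age in months and by day (grey naive, red day 12, blue day 28). Circles are females and triangles males, the horizontal line is the mean and the vertical bar the SD over the libraries of that age and day. Most Cd36 points of day 12 lie above the naive points at every age, with 2 low libraries among 18-month-old females, while Msr1 is above naive at 9 and 18 months only in part of the libraries.

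Changes after IVT, for which day 12 and day 28 share the same naive libraries, were tested with edgeR's quasi-likelihood test and Benjamini-Hochberg adjustment over all genes, first within each age and sex against a log2 fold change of 1 (adjusted p under 0.05), and then with both sexes averaged at each age against no change (adjusted p under 0.05). Within the 6 combinations of age and sex, 6 to 8 of the 10 members passed the filter on low counts: Cd36, Msr1, Mrc1, Stab1, Scarb1 and Scarb2 in all 6, Cd163 in 9- and 18-month-old males and Lyve1 in 9-month-old males. In these males Cd163 and Lyve1 passed through naive libraries alone, so only a fall could be called. Over 39 tests of day 12 against naive, 8 were called, among them Cd163 in 9-month-old males. These were 1 of 6 members in 3-month-old females (2.43% of all genes tested were called), 2 of 6 in 3-month-old males (3.77%), 1 of 6 in 9-month-old females (2.52%), 3 of 8 in 9-month-old males (0.954%), 0 of 6 in 18-month-old females (0%) and 1 of 7 in 18-month-old males (4.16%). For the 18-month-old females 2 members, Cd36 and Msr1, had an unadjusted p under 0.05, and DESeq2 called 0.

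At day 28 against naive, 2 of 39 tests were called, both of Cd36 in males: 1 of 6 members at 3 months (0.701% of all genes called) and 1 of 7 at 18 months (0.684%). No member was called in 3-month-old females (0.44%), 9-month-old females (0.461%), 9-month-old males (0.129%) or 18-month-old females (0%). In those 4 comparisons edgeR's unadjusted p was under 0.05 for 1, 0, 4 and 2 members, and DESeq2 called 0. Averaged over the sexes, where all members but Marco passed the filter, day 12 differed from naive for 5 of 9 members at 3 months (16.6% of all genes called), 4 at 9 months (18.4%) and 7 at 18 months (15.6%). Among these, Cd163 and Lyve1 passed the filter only through naive libraries, so against naive only a fall could be called. Cd5l passed only through libraries of injected eyes, so only a rise could be called. Day 28 differed from naive for 2 of 9 members at 3 months (2.78%), 0 at 9 months (4%, with 3 members at an unadjusted p under 0.05 and 0 called by DESeq2) and 5 at 18 months (4.82%). From day 12 to day 28, 2, 3 and 1 members changed at 3, 9 and 18 months, all of them lower at day 28 (2.79%, 9.32% and 2.8% of all genes called).

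Cd36, a class B receptor that takes up oxidised lipoproteins and long-chain fatty acids, rose after AAV more often than any other member. Its mean over all ages was 39.8 ± 63.7 CPM (SD, n = 19) in naive libraries, 358 ± 242 CPM at day 12 (n = 22) and 108 ± 55.4 CPM at day 28 (n = 21), which is 9.00-fold higher at day 12 and 2.703-fold higher at day 28 than naive as a ratio of means. In bulk RNA of sorted cells, more cells of a type and more RNA per cell cannot be told apart. In 3-month-old males Cd36 stood at 7.01, 17.0 and 23.3 CPM in naive libraries, 229.8, 263, 349.8 and 292 CPM at day 12 and 79.0, 102 and 121 CPM at day 28. All day 12 and day 28 libraries lay above all naive ones, and all day 12 libraries above all day 28 ones. The change was called at day 12 (log2 fold change 4.32, SE 0.324, adjusted p = 4.35e-07, edgeR) and at day 28 (log2 fold change 2.83, SE 0.320, adjusted p = 0.000715), and the second call was lost in the single fit over all libraries (adjusted p = 1, against 1.5e-13 to 1 over 12 alternatives).

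In 3-month-old females the naive values were 48.5, 16.0, 9.58 and 143 CPM, against 128, 144, 159.6 and 85.9 CPM at day 12 and 56.8, 68.2, 58.7 and 79.7 CPM at day 28. The fourth naive library reached the level of day 12, and the groups overlapped. The difference was not called in edgeR's test at day 12 (log2 fold change 1.41, SE 0.478, adjusted p = 0.903) or at day 28 (log2 fold change 0.51, SE 0.473, adjusted p = 1). Males exceeded females in this day 12 change by 2.89 on the log2 scale (SE 1.26), which did not pass edgeR's interaction test (adjusted p = 0.872).

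At 9 months the female naive libraries held 267, 0.996 and 23.9 CPM, the widest spread of any naive group, and the day 12 libraries held 448, 432 and 501 CPM. Day 12 lay above naive without overlap, whereas the day 28 values of 46.3, 126, 285 and 122 CPM overlapped naive and lay below day 12. In 9-month-old males Cd36 stood at 30.2 and 57.4 CPM in naive libraries, 449, 106, 498 and 520.1 CPM at day 12 and 109, 88.3 and 54.9 CPM at day 28. The second male day 12 library was close to the day 28 level, and the other 3 were far above it. The day 12 change was called in males (log2 fold change 3.34, SE 0.641, adjusted p = 0.0393, edgeR) but not in females (log2 fold change 2.29, SE 1.07, adjusted p = 0.636), a difference between the sexes that did not pass the interaction test (adjusted p = 0.928). The male call was lost on leaving out either naive library or day 12 replicate 1, 3 or 4 (adjusted p up to 0.328), and adjusted p ranged from 8.06e-06 to 0.335 over the 12 alternatives.

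At 18 months the male values were 14.3, 9.19, 23.6 and 1.30 CPM in naive libraries, 945, 659 and 605 CPM at day 12 and 75.9, 141, 114 and 210.4 CPM at day 28, with no overlap between any of the 3 days. This gave the largest fitted change of Cd36 among the 6 combinations of age and sex at day 12 (log2 fold change 6.08, SE 0.584, adjusted p = 8.40e-06, edgeR) and at day 28 (log2 fold change 3.58, SE 0.518, adjusted p = 0.00603). The day 28 call was lost in 3 of 12 alternatives (adjusted p 9.11e-07 to 0.175), among them the placing of male day 28 replicate 4, whose labels name both days, at day 12 (adjusted p = 0.0763). In 18-month-old females naive libraries held 44.0, 18.0 and 2.28 CPM, and those of day 12 split into a low pair and a high pair, 2.67, 12.9, 666 and 385 CPM. Day 28 held 77.9, 127 and 114 CPM, above every female naive library of that age. Neither day was called in these females (log2 fold change 4.01, SE 1.48, adjusted p = 0.896 at day 12, adjusted p = 1 at day 28, edgeR).

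The pair of low Cd36 libraries, 18-month-old female day 12 replicates 1 and 2, and the low 9-month-old male day 12 replicate 2 stood apart in microglia markers as well. Their summed microglia markers were 36291, 30414 and 31308 CPM, when the other 19 day 12 libraries ran from 8210 to 18674 CPM and naive libraries from 32555 CPM upwards. Their monocyte marker sums were 10.7, 12.9 and 7.75 CPM, when the others ran from 12.7 to 963 CPM. Their T cell marker sums were 1.60, 10.5 and 89.7 CPM, the last within the range of the others, 34.7 to 282 CPM. With these 3 libraries set aside, an alternative chosen after the data were seen, the Cd36 change in 18-month-old females was called by edgeR (log2 fold change 4.94, adjusted p = 0.0231), and 9 tests in place of 8 were called over the 6 combinations. The pair set aside in that group was its lowest in Cd36, so a larger change followed from the choice. Why these libraries stood apart was not tested.

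With the sexes averaged, Cd36 rose at day 12 at 3 months by 2.85 (SE 0.666, adjusted p = 0.00127), at 9 months by 2.79 (SE 0.768, adjusted p = 0.00687) and at 18 months by 5.02 (SE 0.752, adjusted p = 1.29e-06) on the log2 scale (edgeR). The ratio of day 12 to naive means was 5.47 at 3 months, 5.56 at 9 months and 29.1 at 18 months. Without female naive replicate 4 the 3-month ratio was 10.2, and without female naive replicate 1 the 9-month ratio was 15, while the 18-month ratio ran from 24.1 to 40.9 with each library left out. At day 28 the change from naive was 1.65 (SE 0.653, adjusted p = 0.198) at 3 months, 0.90 (SE 0.704, adjusted p = 0.538) at 9 months and 3.01 (SE 0.688, adjusted p = 0.00336) at 18 months, of which only the last was called, and it was lost in 2 of 11 alternatives (adjusted p 1.91e-36 to 0.0508). From day 12 to day 28 Cd36 fell at 9 months, with a log2 difference of -1.88 (SE 0.638, adjusted p = 0.0496), while the differences at 3 months, -1.20 (SE 0.612, adjusted p = 0.326), and 18 months, -2.01 (SE 0.640, adjusted p = 0.0750), did not pass. The 9-month day 12 call was lost without male naive replicate 1 (adjusted p = 0.0620). The 9-month fall from day 12 to day 28 was lost on leaving out 12 of its 14 libraries in turn, namely female day 12 replicate 1, 2 or 3, male day 12 replicate 1, 3 or 4, female day 28 replicate 1, 2 or 4 or male day 28 replicate 2, 3 or 4 (adjusted p up to 0.124, and 2.59e-16 to 0.572 over the 11 alternatives).

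The libraries were collected on 2 days, which the study's batch correction took as its batches, and Cd36 was the member most unequal between them. Before the correction its mean log2(CPM + 1) was 7.12 in the 27 libraries of the first day and 5.64 in the 35 of the second, and after it 6.26 and 6.39. Within a collection day, the difference of day 12 from naive in mean log2(CPM + 1) was 3.60 on the first collection day and 2.45 on the second at 3 months. It was 1.82 on the first collection day and 5.08 on the second at 9 months, and 0.93 on the first collection day and 6.20 on the second at 18 months. All 6 differences were positive, and at 9 and 18 months they were larger on the second day. The 3 day 12 libraries described above as standing apart were all from the first collection day. So was 9-month-old female naive replicate 1, at 267 CPM. Of the 4 male day 12 libraries at 9 months 3 were from the first day, and all 4 but replicate 2 held 449 to 520 CPM. Of the 3 at 18 months 1 was from the first day, and all 3 held 605 to 945 CPM. The share of the collection day in these differences, apart from the libraries named, was not tested. For day 28 the differences were 1.86 on the first collection day and 1.63 on the second at 3 months, -0.34 on the first collection day and 3.04 on the second at 9 months and 2.31 on the first collection day and 4.16 on the second at 18 months, so the 9-month value changed sign between days.

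Scarb2 (LIMP-2), a class B receptor of the lysosomal membrane that carries glucocerebrosidase to lysosomes, was the most abundant member in naive microglia and rose at day 12 in the younger mice. At 3 months it ranged from 125 to 198 CPM in the 7 naive libraries (median 159) and from 224 to 427 CPM in the 8 of day 12 (median 274), with no overlap. The 5 naive libraries at 9 months held 142 to 157 CPM and the 7 day 12 libraries 191 to 287 CPM, again without overlap. At 18 months the naive range of 133 to 337 CPM contained the day 12 range of 140.2 to 296 CPM. The rise was 1.02 (SE 0.147, adjusted p = 3.55e-07) at 3 months and 0.72 (SE 0.168, adjusted p = 0.00143) at 9 months on the log2 scale, and the difference at 18 months was 0.22 (SE 0.149, adjusted p = 0.366) (edgeR, sexes averaged). None of the 6 tests within an age and sex passed for Scarb2, where the change is tested against a log2 fold change of 1.

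At day 28 the Scarb2 medians were 188 CPM at 3 months, 176 CPM at 9 months and 224 CPM at 18 months, the last above the 18-month medians of naive (176 CPM) and day 12 (203 CPM), and no age was called against naive. It fell from day 12 to day 28 at 3 months (log2 fold change -0.62, SE 0.145, adjusted p = 0.00890) and at 9 months (log2 fold change -0.45, SE 0.1496, adjusted p = 0.0476, edgeR). Without 3-month-old male day 28 replicate 1 the first of these had an adjusted p of 0.0501. The 9-month fall was lost on leaving out 9 of its 14 libraries in turn, namely female day 12 replicate 1 or 2, male day 12 replicate 1 or 4, female day 28 replicate 1, 2 or 4 or male day 28 replicate 3 or 4 (adjusted p up to 0.121) and in 5 of 11 alternatives (adjusted p 0.0208 to 1).

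Scarb1 (SR-BI), the class B receptor for high-density lipoprotein, stayed at a low level, with medians of 18.8 CPM in naive libraries, 15.8 CPM at day 12 and 19.0 CPM at day 28. It fell only at 18 months at day 12 (log2 fold change -1.11, SE 0.352, adjusted p = 0.0240, edgeR), where naive libraries ran from 14.6 to 55.3 CPM and day 12 libraries from 5.66 to 27.2 CPM. The groups overlapped, and the call was lost without female naive replicate 1, female day 12 replicate 3 or 4, or male day 12 replicate 1 or 2 (adjusted p up to 0.0921). Cd36 and Scarb1, the class B receptors of the cell surface, thus moved in opposite directions at 18 months.

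**Figure D2:**
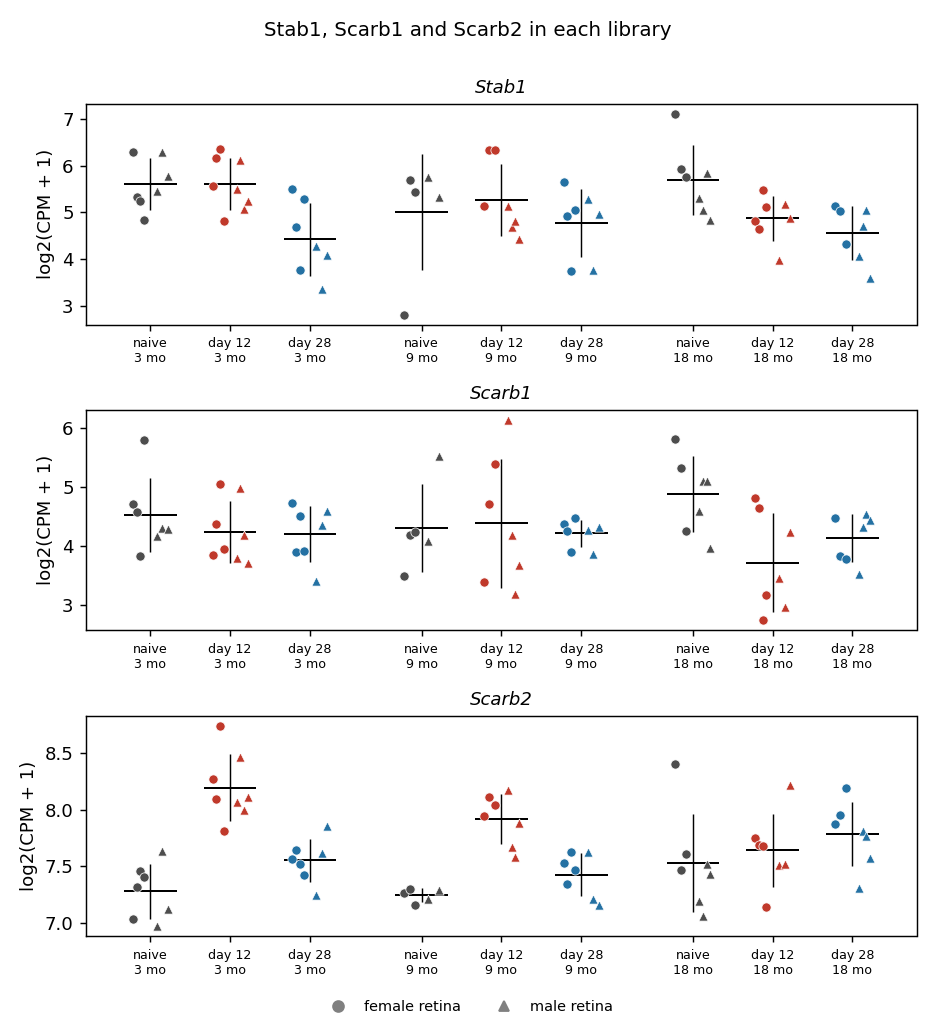
Level of Stab1, Scarb1 and Scarb2 in each library, as log2(CPM + 1), by age in months and by day (grey naive, red day 12, blue day 28), with circles for females and triangles for males. The line is the mean and the bar the SD over libraries of that age and day. Scarb2 at day 12 lies above naive without overlap at 3 and 9 months but not at 18 months, and Stab1 sits lower at day 28 than naive at 3 and 18 months with overlapping points.

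Msr1, the class A receptor that binds modified low-density lipoprotein and bacterial surface polymers, was called above naive at day 12 in 9-month-old females and, with the sexes averaged, at 18 months. In 3-month-old females it stood at 107, 26.2, 30.9 and 23.5 CPM in naive libraries and 12.2, 13.6, 9.86 and 22.3 CPM at day 12, and in 3-month-old males at 31.7, 44.6 and 29.3 CPM and 41.6, 18.3, 69.1 and 32.1 CPM. The female day 12 libraries were all below the naive ones, while the male groups overlapped, and neither was called (log2 fold change -1.53, SE 0.439, adjusted p = 0.607 in females and log2 fold change 0.29, SE 0.390, adjusted p = 1 in males, edgeR). In 9-month-old females Msr1 rose from 24.2, 18.9 and 30.4 CPM to 107, 96.9 and 155 CPM, with every day 12 library above every naive one (log2 fold change 2.24, SE 0.344, adjusted p = 0.0148, edgeR). That call was lost without naive replicate 2 or day 12 replicate 3 (adjusted p up to 0.0770), and adjusted p ran from 0.00105 to 0.294 over 12 alternatives, with 0.294 the value in the fit over all libraries together.

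The 9-month-old males held 59.8 and 34.3 CPM in naive libraries and 107, 2.77, 63.8 and 62.9 CPM at day 12, where the second library, among the 3 set aside above, was far below the others. At 18 months the naive values were 3.05, 32.6 and 2.28 CPM in females and 34.2, 67.1, 41.0 and 4.69 CPM in males. The day 12 values were 8.01, 20.0, 110.2 and 136 CPM in females and 23.3, 152 and 24.9 CPM in males, so that some libraries of each sex were high and others within the naive range. None of these comparisons within an age and sex passed.

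With the sexes averaged, the day 12 difference of Msr1 was -0.62 (SE 0.509, adjusted p = 0.469) at 3 months, 1.32 (SE 0.597, adjusted p = 0.117) at 9 months and 1.88 (SE 0.544, adjusted p = 0.0117) at 18 months on the log2 scale, and the last was called (edgeR). This call was lost without male day 12 replicate 2 (adjusted p = 0.204), and with the 3 libraries set aside the 9-month value was called too (log2 fold change 1.52, adjusted p = 0.0257). The 9-month library among them was the lowest in Msr1 of day 12 at that age, so a larger difference followed from setting it aside. Within a collection day the 18-month difference in mean log2(CPM + 1) was -0.36 on the first collection day and 2.79 on the second, and the 9-month difference 0.07 on the first collection day and 1.82 on the second. At both ages the difference was larger on the second day, and the 3 libraries set aside were all from the first. The share of the collection day in these differences, apart from those libraries, was not tested.

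At day 28 Msr1 was low at every age. It stood at 22.2, 11.4, 11.4 and 16.5 CPM in 3-month-old females, 4.09, 11.9 and 11.2 CPM in 3-month-old males, 17.7, 17.5, 8.63 and 10.4 CPM in 9-month-old females and 8.79, 10.12 and 3.30 CPM in 9-month-old males. At 18 months it was 7.57, 21.5 and 13.8 CPM in females and 4.39, 10.04, 5.28 and 19.4 CPM in males. Over all ages the mean was 11.8 ± 5.60 CPM (SD, n = 21), against 34.0 ± 24.3 CPM in naive libraries (n = 19) and 58.6 ± 50.3 CPM at day 12 (n = 22). Msr1 fell from day 12 to day 28 at 9 months (log2 fold change -3.01, SE 0.576, adjusted p = 0.000345) and at 18 months (log2 fold change -2.64, SE 0.562, adjusted p = 0.00395, edgeR), and the second call was lost without male day 12 replicate 2 (adjusted p = 0.0820) and with the omitted 18-month-old female day 28 replicate 1, at 96.4 CPM, put back (adjusted p = 0.0799, against 1.89e-18 to 0.0968 over 11 alternatives). Against naive, the day 28 differences of -1.61 (SE 0.550, adjusted p = 0.106), -1.69 (SE 0.592, adjusted p = 0.0923) and -0.76 (SE 0.547, adjusted p = 0.524) at 3, 9 and 18 months did not pass. With the 3 day 12 libraries set aside, the first and second did (adjusted p = 0.0310 and 0.0311).

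Marco, the other class A receptor, was near absent. It had counts in 0 of 19 naive libraries, 3 of 22 at day 12 and 1 of 21 at day 28, with a highest value of 4.02 CPM, and it passed no filter on low counts. Cd5l, a soluble scavenger protein that macrophages secrete (AIM), had counts in 1 of 19 naive libraries, 5 of 22 at day 12 and 4 of 21 at day 28. At 18 months Cd5l was called at day 12 against naive (adjusted p = 0.0461, edgeR), when it had counts in 3 of 7 day 12 libraries and in 0 of 7 naive ones. Female day 12 replicate 2, at 9.50 CPM, was the highest of these. Cd5l passed the filter on low counts only through libraries of injected eyes, so only a rise from naive could be called. The call was lost without any of 9 libraries, namely female naive replicate 1, 2 or 3, male naive replicate 1, 2, 3 or 4, female day 12 replicate 2 or male day 12 replicate 3 (adjusted p up to 1), and in 5 of 10 alternatives (adjusted p 0.0123 to 0.161).

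**Figure D3:**
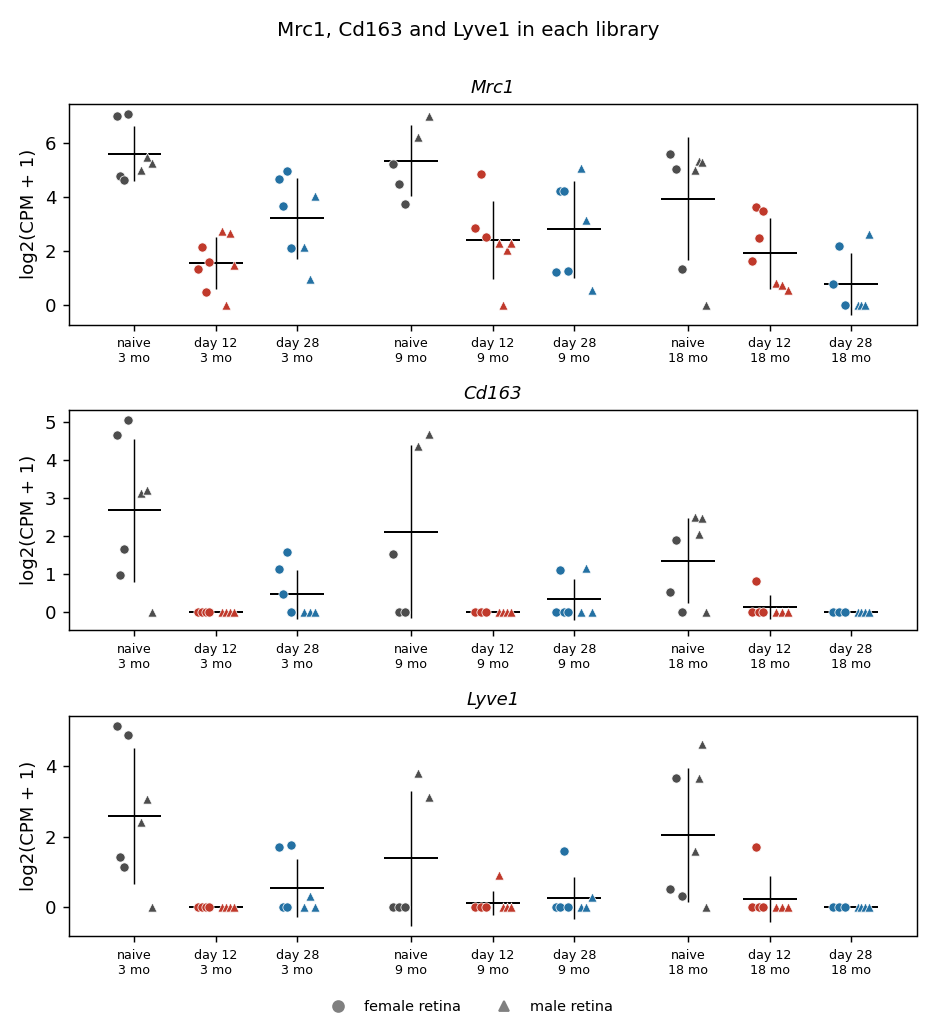
Level of Mrc1, Cd163 and Lyve1 in each library, as log2(CPM + 1), by age in months and by day (grey naive, red day 12, blue day 28), with circles for females and triangles for males. The line is the mean and the bar the SD over libraries of that age and day. All 3 genes are highest in naive libraries, and most libraries of day 12 and day 28 have no count of Cd163 or Lyve1.

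Mrc1, the mannose receptor and the most widely used border macrophage marker, fell after AAV at all 3 ages. Over all ages its mean was 46.8 ± 40.5 CPM in naive libraries (SD, n = 19), 4.60 ± 6.10 CPM at day 12 (n = 22) and 8.50 ± 10.5 CPM at day 28 (n = 21), and the naive mean was 10.2-fold that of day 12. In 3-month-old females it stood at 127, 26.5, 24.2 and 134 CPM in naive libraries, 1.57, 3.50, 0.402 and 2.07 CPM at day 12 and 24.3, 11.8, 30.8 and 3.35 CPM at day 28. In 3-month-old males it was 31.4, 43.7 and 37.5 CPM, 5.74, 0, 5.36 and 1.78 CPM and 3.40, 0.969 and 15.3 CPM on the same days. Day 12 lay below naive without overlap in both sexes, and the fall was called in both (log2 fold change -5.17, SE 0.708, adjusted p = 0.000186 in females and log2 fold change -3.44, SE 0.769, adjusted p = 0.0320 in males, edgeR). The male call was lost without any of the 3 naive libraries or day 12 replicate 4 (adjusted p up to 0.113) and in 5 of 12 alternatives (adjusted p 1.68e-06 to 0.63).

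At 9 months Mrc1 was 36.9, 21.7 and 12.5 CPM in female naive libraries, 6.30, 28.2 and 4.83 CPM at day 12 and 1.34, 17.7, 17.8 and 1.39 CPM at day 28, and the ranges of all 3 days overlapped. The 9-month-old males held 74.9 and 129 CPM in naive libraries, 3.92, 0, 3.09 and 3.93 CPM at day 12 and 32.5, 7.90 and 0.472 CPM at day 28, all below both naive values. The male fall at day 12 was called (log2 fold change -4.94, SE 0.903, adjusted p = 0.0224, edgeR), and was lost without either naive library or day 12 replicate 3 (adjusted p up to 0.162) and in 3 of 12 alternatives (adjusted p 6.73e-14 to 0.392). The female difference was -0.95 (SE 0.934, adjusted p = 1), and the difference between the sexes did not pass the interaction test (adjusted p = 0.698).

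At 18 months Mrc1 stood at 47.0, 32.4 and 1.52 CPM in female naive libraries and 30.9, 39.3, 38.7 and 0 CPM in male ones, so 1 naive library of each sex was at or near 0. The day 12 values were 2.14, 11.4, 4.58 and 10.4 CPM in females and 0.784, 0.677 and 0.497 CPM in males. At day 28 they were 0.733, 3.58 and 0 CPM in females and 0, 0, 0 and 5.24 CPM in males. Neither sex was called alone, but with the sexes averaged Mrc1 fell at day 12 at 3 months by 4.30 (SE 0.793, adjusted p = 4.43e-05), at 9 months by 2.97 (SE 0.818, adjusted p = 0.00677) and at 18 months by 3.37 (SE 0.859, adjusted p = 0.00373) on the log2 scale (edgeR). At day 28 the log2 differences were -2.14 (SE 0.748, adjusted p = 0.122) and -2.04 (SE 0.786, adjusted p = 0.136) at 3 and 9 months, which did not pass, and -4.07 (SE 0.863, adjusted p = 0.00139) at 18 months, which did. All 3 falls at day 12 and that at day 28 at 18 months were kept with every library left out in turn.

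Cd163, the receptor for haemoglobin bound to haptoglobin, fell from a lower level, with counts in 14 of 19 naive libraries, 1 of 22 at day 12 and 5 of 21 at day 28. In naive libraries it was 24.4, 0.953, 2.16 and 32.4 CPM in 3-month-old females, 7.69, 8.29 and 0 CPM in 3-month-old males and 1.85, 0 and 0 CPM in 9-month-old females. It was 19.5 and 24.6 CPM in 9-month-old males, 0.436, 2.72 and 0 CPM in 18-month-old females and 4.60, 3.11, 4.58 and 0 CPM in 18-month-old males. After AAV its only day 12 value above 0 was 0.760 CPM, in 18-month-old female replicate 2, and its 5 values above 0 at day 28 ran from 0.379 to 1.96 CPM. All day 12 libraries at 3 and 9 months were at 0, and so were all day 28 libraries at 18 months. Against the floor of 3 counts per library, Cd163 was at least 13.2-fold lower at day 12 than the naive mean of 10.8 CPM at 3 months (n = 7) and at least 10.5-fold lower than 9.19 CPM at 9 months (n = 5). Without male naive replicate 2 the 9-month value was at least 6.10-fold. At 18 months it was at least 2.88-fold lower at day 28 than 2.21 CPM (n = 7). The libraries at 0, 42 for Cd163 and 41 for Lyve1, were at 0 in the table before batch correction as well.

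The fall of Cd163 was called by edgeR, with the sexes averaged, at day 12 at 3 months (adjusted p = 9.98e-05), 9 months (adjusted p = 0.00229) and 18 months (adjusted p = 0.0354). It was called at day 28 at 3 months (adjusted p = 0.0202) and 18 months (adjusted p = 0.0203), and within an age and sex in 9-month-old males at day 12 (adjusted p = 0.0139). In each of these fits Cd163 passed the filter on low counts through naive libraries alone, so only a fall could be called. DESeq2 called neither the 9- and 18-month values of day 12, nor those of day 28, nor that of the 9-month-old males. The 9-month call was lost without female naive replicate 1 (adjusted p = 1), that of 9-month-old males without either naive library (adjusted p up to 0.103), and the 18-month call at day 12 without any of 8 of its 14 libraries, namely female naive replicate 2, male naive replicate 1 or 3, female day 12 replicate 3 or 4 or male day 12 replicate 1, 2 or 3 (adjusted p up to 0.26). The day 28 calls were lost without any of the 3 male day 28 libraries at 3 months (adjusted p up to 0.0785), and without female naive replicate 2 or female day 28 replicate 3 at 18 months (adjusted p up to 0.178).

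Lyve1, a hyaluronan receptor of lymphatic endothelium and of perivascular macrophages, had counts in 14 of 19 naive libraries, 2 of 22 at day 12 and 5 of 21 at day 28. Its naive values were 34.4, 1.67, 1.20 and 28.7 CPM in 3-month-old females, 4.30, 7.40 and 0 CPM in 3-month-old males and 0 in all 3 libraries of 9-month-old females. They were 13 and 7.77 CPM in 9-month-old males, 0.436, 11.7 and 0.253 CPM in 18-month-old females and 2.04, 11.8, 23.8 and 0 CPM in 18-month-old males. Against the floor of 3 counts per library, Lyve1 was at least 13.5-fold lower at day 12 than the naive mean of 11.1 CPM at 3 months (n = 7), and at least 9.32-fold lower at day 28 than 7.15 CPM at 18 months (n = 7). Without female naive replicate 1 the first was at least 8.77-fold, and without male naive replicate 3 the second was at least 5.69-fold. These falls were called (adjusted p = 0.000262 and 0.00330, edgeR), as was that of day 12 at 18 months (adjusted p = 0.00908), where the only counts were 2.28 CPM in female replicate 2. Lyve1 too passed the filter through naive libraries alone, so only a fall could be called. At 9 months all female naive and day 12 libraries were at 0, so the averaged fit gave no usable error for Lyve1 at day 12 and no call. At day 28 it was not called at 3 months (adjusted p = 0.0736) or 9 months (adjusted p = 0.962). DESeq2 did not call the 18-month value of day 12 (adjusted p = 0.0967, against 9.09e-06 to 0.0967 over 11 alternatives). Both 18-month calls were lost without female naive replicate 2 (adjusted p = 0.141 at day 12 and 0.0618 at day 28).

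Stab1 (stabilin-1), which takes up acetylated lipoproteins and the matrix protein SPARC, was called at day 12 at no age. Its range was 6.00 to 136.8 CPM in naive libraries (median 42.7), 14.7 to 81.7 CPM at day 12 (median 34.1) and 9.20 to 49.6 CPM at day 28 (median 25.0), and the 3 days overlapped. The day 12 differences were 0.08 (SE 0.312, adjusted p = 0.922), 0.05 (SE 0.359, adjusted p = 0.974) and -0.81 (SE 0.329, adjusted p = 0.0866) at 3, 9 and 18 months on the log2 scale, and none passed (edgeR). At day 28 it was lower than naive at 3 months (log2 fold change -1.18, SE 0.336, adjusted p = 0.0387) and 18 months (log2 fold change -1.13, SE 0.330, adjusted p = 0.0294), and lower than day 12 at 3 months (log2 fold change -1.26, SE 0.328, adjusted p = 0.0194).

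The Stab1 call at day 28 was lost on leaving out 8 of 14 libraries in turn at 3 months, namely female naive replicate 1, male naive replicate 2 or 3, female day 28 replicate 2 or 3 or male day 28 replicate 1, 2 or 3 (adjusted p up to 0.152). The 18-month call was lost for 6 of 14, namely female naive replicate 1, male naive replicate 3, female day 28 replicate 3 or 4 or male day 28 replicate 1 or 4 (adjusted p up to 0.174), and that of day 28 against day 12 at 3 months without male day 12 replicate 2, female day 28 replicate 3 or male day 28 replicate 2 or 3 (adjusted p up to 0.0887). All 3 were also lost with the batch correction repeated with the groups kept (adjusted p 0.136, 0.0611 and 0.0794) and with uncorrected counts and no batch term, with adjusted p from 0.0681 to 0.219. Within a collection day, the day 28 differences in mean log2(CPM + 1) were -0.87 on the first collection day and -1.41 on the second at 3 months and -1.19 on the first collection day and -1.09 on the second at 18 months, all in the same direction.

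**Figure D4:**
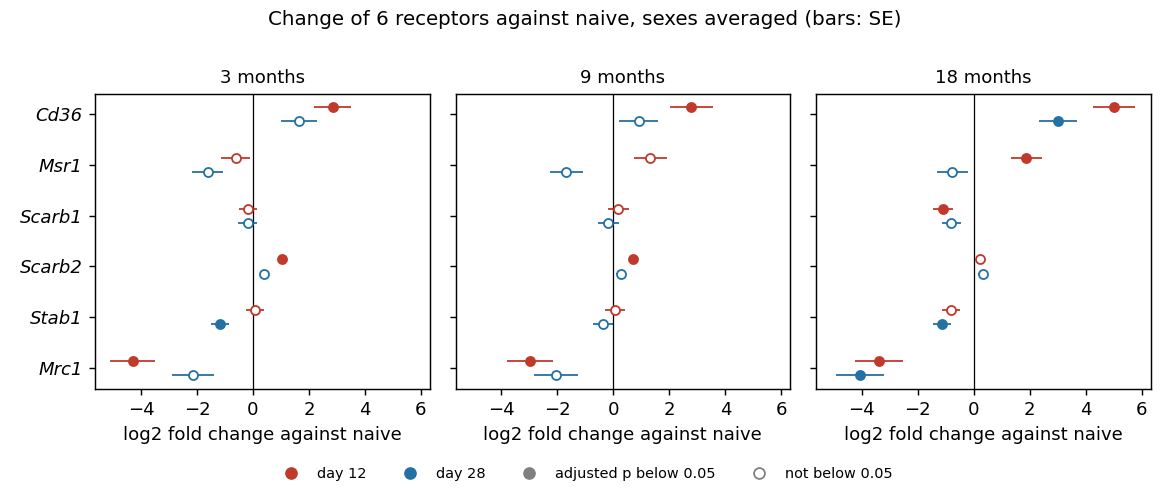
Log2 fold change against naive with the sexes averaged (x axis, edgeR, bars are SE) for the 6 receptors with counts in nearly every library, at day 12 (red) and day 28 (blue), in panels for 3, 9 and 18 months. Filled symbols have an adjusted p under 0.05. Cd36 is to the right and Mrc1 to the left of 0 at every age, and the Msr1 point of day 12 moves from the left of 0 at 3 months to the right at 9 and 18 months.

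Within collection days, Mrc1 at day 12 was below naive in every combination of age and day: the differences in mean log2(CPM + 1) were -3.90 on the first collection day and -4.18 on the second at 3 months, -3.95 on the first collection day and -1.86 on the second at 9 months and -3.27 on the first collection day and -1.10 on the second at 18 months. Those of Cd163 and Lyve1 at day 12 were negative on both days at every age. A single 18-month-old male naive library, replicate 4, was at 0 for Mrc1, Cd163 and Lyve1 together, and 18-month-old female naive replicate 3 held 1.52, 0 and 0.253 CPM of the same genes.

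The 3 border genes varied together among the naive libraries, taken over all ages and both sexes. Across these 19 libraries, of both collection days, Mrc1 and Cd163 on the log2(CPM + 1) scale had Pearson's r = 0.728 (permutation test, 100000 resamples, 2-sided, adjusted p = 0.00016 over 8 relations, from a raw p of 2e-05, the smallest these resamples can give) and Spearman's rho = 0.779 (permutation adjusted p = 0.00112). Mrc1 and Lyve1 had r = 0.63 (permutation adjusted p = 0.00139) and rho = 0.715 (permutation adjusted p = 0.00176). Without the 2 libraries farthest from the median of Mrc1, r was 0.835 and 0.683. On the first and second collection days it was 0.711 and 0.752 for Cd163, and 0.705 and 0.663 for Lyve1 (8 and 11 libraries). The summed level of 14 further border macrophage markers had r = 0.731 with Mrc1 (permutation adjusted p = 0.00016), rho = 0.798 (permutation adjusted p = 0.00064), r = 0.728 without the 2 farthest, and 0.906 and 0.802 within days. The naive libraries also differed in age and sex. The lowest group means of Mrc1 and Cd163 were 23.7 and 0.616 CPM, in 9-month-old females. The highest were 102 and 22.0 CPM, in 9-month-old males. Lyve1 means ran from 0 CPM in 9-month-old females to 16.5 CPM in 3-month-old females. These tests took all 19 libraries together, so in all 8 relations they do not separate differences between groups from variation within a group. Relations within a group were not tested.

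**Figure D5:**
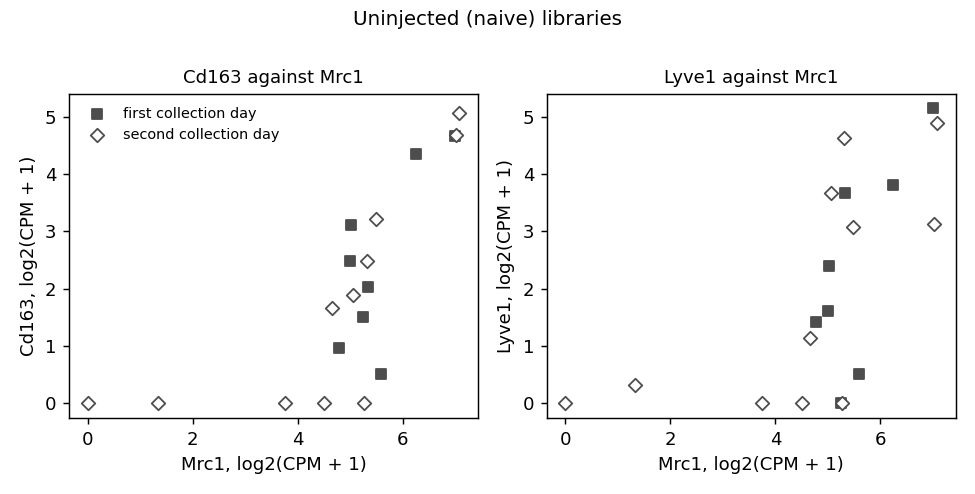
Level of Cd163 and of Lyve1 (y axes) against that of Mrc1 (x axis) in the 19 naive libraries, all as log2(CPM + 1), with a symbol for each of the 2 collection days. Libraries high in Mrc1 are mostly high in Cd163 and Lyve1 on both days, and the libraries at or near 0 for Mrc1 are at or near 0 for the other genes.

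Stab1 showed no such relation with Mrc1 (r = 0.125, permutation adjusted p = 0.572, and rho = 0.211, permutation adjusted p = 0.439), nor did the summed level of 8 endothelial markers (r = -0.0915, permutation adjusted p = 0.73, and rho = 0.0825, permutation adjusted p = 0.731). Cd36 had r = 0.706 (permutation adjusted p = 0.00168) and rho = 0.728 (permutation adjusted p = 0.0016), which fell to r = 0.559 without the 2 farthest libraries and was 0.312 on the first day and 0.805 on the second. Msr1 had r = 0.67 (permutation adjusted p = 0.0156) and rho = 0.5 (permutation adjusted p = 0.0425), but r = 0.23 without the 2 farthest libraries, so the value of r depended on those. It was 0.409 on the first day and 0.826 on the second. Scarb1 had r = 0.468 (permutation adjusted p = 0.037) and rho = 0.591 (permutation adjusted p = 0.0139), with r = 0.495 without the 2 farthest, and 0.0855 and 0.668 within the days.

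Ages were compared within each sex and day at an adjusted p under 0.1, in 10 comparisons of 9 members. The only call was Msr1, which was higher at 9 than at 3 months in females at day 12 (log2 fold change 2.90, SE 0.764, adjusted p = 0.0637, edgeR), 1 of 9 members when 0.905% of all genes were called. In these groups Msr1 was 12.2, 13.6, 9.86 and 22.3 CPM at 3 months and 107, 96.9 and 155 CPM at 9 months, without overlap. The call was lost without any of 6 of the 7 libraries, all but 9-month-old replicate 1 (adjusted p up to 0.221), and was absent at an adjusted p under 0.05. No member was called between 9 and 3 months in females at day 28 or in males at day 12 or day 28 (each 0% of all genes). Between 18 and 3 months none was called in naive females (0.236% of all genes), females at day 12 (0.456%) or day 28 (0%), naive males (0.0221%), or males at day 12 (0%) or day 28 (0.00736%).

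Over these 90 tests 17 had an unadjusted p under 0.05, and DESeq2 called 4. With the 3 day 12 libraries set aside, Msr1 was also called higher at 18 than at 3 months in females at day 12 (log2 difference 3.28, adjusted p = 0.00356, edgeR), as was Cd36 (log2 difference 2.26, adjusted p = 0.0992). With them kept, adjusted p was 0.131 and 0.528. The 18-month-old female replicates 1 and 2 among them were the lowest of their group for both genes, and were chosen after the data were seen. Larger differences thus followed from that choice, and these calls are no support for a difference between ages. A difference between males and females in the change from naive was called for no member by edgeR's interaction test (adjusted p under 0.1): 0 of 9 members were called in each of the 6 tests, where 0% of all genes were called at 3 and 18 months at day 12 and at all ages at day 28, and 0.00736% at 9 months at day 12. Of these 54 tests 8 had an unadjusted p under 0.05, and DESeq2 called 0.

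The other genes of these pathways were counted over the same tests, day 12 against naive with the sexes averaged at 3, 9 and 18 months, in which 16.6%, 18.4% and 15.6% of all genes were called in either direction. Of 13 tested border macrophage markers outside the members, 6, 4 and 3 fell and 1, 0 and 1 rose, with medians of -1.26, -0.81 and -1.05 on the log2 scale, when the medians over all genes tested were -0.000524, 0.06 and 0.03. Pf4, a chemokine of border macrophages, fell in 4 of the 6 combinations of age and sex, for example with a log2 fold change of -4.63 (SE 0.571, adjusted p = 6.24e-05) in 3-month-old females. F13a1, the coagulation factor XIII A chain, fell in 2 of the 5 combinations where it was tested, and the transcription factor Maf in 2 of 6. Dab2, an endocytic adaptor, rose in 9-month-old females, with a log2 fold change of 3.86 (SE 0.542, adjusted p = 0.00232), and was called in none of the other 5 combinations.

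Of 8 tested scavenger receptors outside the members, 2, 1 and 1 rose at 3, 9 and 18 months and 0, 0 and 1 fell, with medians of 0.41, 0.23 and -0.15. Cxcl16, a membrane chemokine that binds oxidised lipoproteins, rose in 4 of 6 combinations, with log2 fold changes from 2.20 to 3.01 over all 6. Of 12 regulators and targets of the lipid-sensing receptors PPAR and LXR, 6, 4 and 2 rose and 0, 1 and 0 fell (medians 1.19, 0.84 and 0.47). Abca1, a cholesterol exporter, rose in 3 of 6 combinations, and Abcg1, its partner in cholesterol export, and Fabp5, a fatty acid carrier, in 2 of 6 each, as did Apoe, a lipoprotein of lipid efflux. Of 8 genes of haem and iron handling, 4, 3 and 4 rose and 1 fell at each age (medians 0.78, 0.74 and 0.74). Slc40a1 (ferroportin), the iron exporter, fell in 4 of 6 combinations. The haemoglobin receptor Cd163 fell in 1 of the 2 where it was tested, a call lost without either naive library. It passed the filter there through naive libraries alone, so only a fall could be called. Hmox1, which degrades haem, and Ftl1, a ferritin chain, each rose in 1 of 6.

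At day 28, when 2.78%, 4% and 4.82% of all genes were called at 3, 9 and 18 months, the border macrophage list had 2, 3 and 4 genes lower and 0, 0 and 1 higher at 3, 9 and 18 months (medians -0.97, -0.96 and -1.05, when those over all genes tested were -0.01, 0.04 and 0.02). The scavenger list had 1 gene higher at each age (medians 0.60, 0.17 and 0.74). The PPAR and LXR list had 3, 0 and 2 higher and 0, 1 and 0 lower (medians 0.30, -0.06 and 0.35). The haem and iron list had 2, 0 and 4 higher and 1, 1 and 0 lower (medians 0.30, 0.31 and 0.58). At 9 months, where no member was called at day 28, both of these lists held 0 genes higher.

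Markers of microglia and of other cells also changed at day 12. Of 10 microglia markers 9, 10 and 9 fell at 3, 9 and 18 months and none rose (medians -1.62, -1.74 and -1.52), P2ry12, Gpr34, Fcrls and Siglech in 4 of 6 combinations each. Of 6 tested monocyte markers 2, 3 and 4 rose (medians 3.38, 3.79 and 3.24), and their sum ran from 0.226 to 134 CPM in naive libraries, 7.75 to 963 CPM at day 12 and 1.56 to 58.6 CPM at day 28. In naive libraries Plac8 was above 3 counts in 16 of 19 and Ccr2 in 14, while Chil3 was at 0 in all naive and day 28 libraries and above 3 counts in 2 of 22 at day 12. At day 28 Fn1 was above 3 counts in 16 of 21. Fn1 rose in 4 of 6 combinations, Plac8 in 2 and Ly6c2 in 1. Of 6 tested T cell markers 5 rose at each age (medians 5.18, 7.90 and 4.90), and their sum ran from 0 to 136 CPM in naive libraries, 1.60 to 282 CPM at day 12 and 10.97 to 152 CPM at day 28. Cd3d, Cd3e, Cd3g and Lck rose in 3 of 6 combinations each. Their part in the Cd36, Msr1 and Mrc1 values was not tested.

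Of 5 tested endothelial markers 1, 2 and 0 rose and 1, 0 and 0 fell, and the sum of all 8 ran from 2.45 to 77.5 CPM in naive libraries, 6.47 to 53.9 CPM at day 12 and 23.3 to 144 CPM at day 28. In naive libraries Kdr was above 3 counts in 17 of 19, Pecam1 in 15 and Flt1 in 14, while Cldn5 and Ly6c1 were at 0 in all 19, and Tek was at 0 in all libraries of day 12 and day 28. Flt1 rose in 1 of 6 combinations at day 12. At day 28 Flt1 was called higher in 3-month-old males, 9-month-old females and 18-month-old males (adjusted p = 0.00178, 0.0123 and 0.0194, edgeR), and in no other combination. Its median was 3.36 CPM in naive libraries, 8.38 CPM at day 12 and 37.05 CPM at day 28. Of 6 photoreceptor markers 0, 6 and 0 fell and none rose, with sums from 571 to 3476 CPM in naive libraries, 418 to 2926 CPM at day 12 and 770 to 2752 CPM at day 28. Of 6 markers of Müller glia and pigment epithelium 1, 2 and 0 rose and 0, 2 and 2 fell.

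The genes whose pattern over the 18 group means was most like that of a called member were found among 13583 other genes by Pearson's r of mean log2 CPM, as a description of these libraries. Cd36 was most like Irf1 (r = 0.975), Slamf8 (0.959) and Iigp1 (0.956), of which Irf1 and Iigp1 are interferon-induced genes. Msr1 was most like Itgb1 (0.91), Prc1 (0.855) and Mcm4 (0.854), the last 2 genes of dividing cells. Cd163 was most like F13a1 (0.968), Lyve1 (0.958) and Kcnd3 (0.93), and Mrc1 was most like Arsb (0.913), Cd34 (0.903) and F13a1 (0.894). The group means share libraries, day and sequencing depth, so these values carry no test.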

How the data were processed

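Retinal microglia were sorted and sequenced in 64 libraries, each from a single retina, of which 62 were analysed, so p-values measure the spread between these retinas. The authors prepared cDNA with SMART-Seq v4 and Nextera XT, sequenced single ends, demultiplexed with bcl2fastq 2.20, aligned with STAR 2.7.8a to mm10, counted reads per refGene gene with featureCounts and corrected the counts in R 4.2.2 with ComBat_seq, taking the collection day as the batch. They deposited whole-number counts per gene as a table before this correction (64 libraries) and a table after it (63 libraries). No strand setting is given in the sources used here, so reads of overlapping and antisense genes cannot be told apart. The corrected counts were used, and the uncorrected ones only as an alternative. Whether the groups were kept in that correction is not given in the sources used here, and a correction without them can move part of a group difference that is unequal between collection days.

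The members, gene lists and tests were chosen with earlier results of these data known. The 18-month-old female day 28 replicate 1 was left out, since the rule for these genes omits it, and 9-month-old male day 28 replicate 1 is in the uncorrected table only. The library of 18-month-old male day 28 replicate 4 has day 28 in its title and day 12 in another label, and was used as day 28. No libraries of a group held identical values.

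Counts were normalised by TMM and filtered with filterByExpr in edgeR 4.0.16 (R 4.3.3). Days were compared within each age and sex with glmTreat, which asked for a change beyond a log2 value of 1 (adjusted p under 0.05). With 1 fit over all 18 groups, glmQLFTest compared days with the sexes averaged (adjusted p under 0.05), ages within a sex, and the sexes' changes (adjusted p under 0.1). P-values were adjusted by Benjamini-Hochberg over all genes. Each SE of edgeR is the absolute log2 fold change over the square root of the F value of glmQLFTest against no change. This holds also where the p-value is from glmTreat. CPM are counts over the library's total in the corrected table. Leaving out a library in the fit over all groups held the dispersion trend of the full fit. The scripts were tested on simulated data.

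The genes named outside the members were, in each list, up to 4 genes called most often over the 6 comparisons of day 12 with naive within an age and sex. Markers named for being at 0 in a day's libraries were chosen after their values were seen. Lists were scavenger receptors and border macrophage markers outside the members, PPAR and LXR genes, haem and iron genes, and markers of microglia, monocytes, T cells, endothelial cells, photoreceptors, and Müller glia with pigment epithelium. Gene positions and exon lengths are from GENCODE on GRCm38 and upstream sequences from RefSeq on GRCm38.p6, which held 7 of the 10 members. Alternatives were DESeq2 1.42.0, its size factors, a table with no filter, the counts before batch correction (once with a term for collection day, once with none), a replicate block, the omitted library put back, the library with 2 day labels at day 12, the form of the test exchanged, 1 fit for all groups, each library left out, and, chosen after seeing the data, the batch correction repeated with groups kept (sva 3.50.0) and 3 day 12 libraries set aside. Permutation tests used SciPy 1.17.1.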

Additional observations from a re-analysis of the deposited data

Results flagged for a closer look

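In groups of 4 libraries, 67 sets of a member's values in a group were examined by Dixon's test for a library far from the other 3, and 11 were found. Chance gives about 1 such set in 20, and sets with a count in 1 library only are found by construction. Msr1 stood at 107 CPM in 3-month-old female naive replicate 1, far above the other naive females of that age. Scarb1 reached 69.7 CPM in 9-month-old male day 12 replicate 1, and Scarb2 was low, at 140.2 CPM, in 18-month-old female day 12 replicate 4.

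Among members at or near 0, a lone library held the counts of a group. Cd163 was 1.13 CPM in 9-month-old female day 28 replicate 2, and Lyve1 was 2.03 CPM in replicate 3 of the same group. In 18-month-old female day 12 replicate 2, Cd163 was 0.76 CPM, Lyve1 was 2.28 CPM and Cd5l was 9.50 CPM, the highest Cd5l value of all libraries, and this library was also among those with microglia marker sums near naive. In 18-month-old male day 28 replicate 4, whose labels name both days, Mrc1 was 5.24 CPM and Cd5l was 7.60 CPM. Marco was 2.35 CPM in 3-month-old female day 12 replicate 1.

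The library left out of all comparisons, 18-month-old female day 28 replicate 1, held Cd36 at 605 CPM in the corrected table, above the highest naive library at 267 CPM and above the highest day 28 library used, at 285 CPM. Msr1 was 96.4 CPM there, within the naive range but above the highest day 28 library used, at 22.2 CPM. Its other 8 members lay within the range of the naive libraries. The difference between the sexes in a member's change was called in no comparison.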

How the results depend on the processing

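The numbers of members called were 8 for day 12 and 2 for day 28 against naive within an age and sex, 29 for days with the sexes averaged, 1 for ages and 0 for sexes. No value of a called member reversed in any alternative. Of the 40 called values, 12 kept their call under every refitted alternative and 17 with every library left out, 11 under both. For day 12 within an age and sex the count was 5 with DESeq2, 15 without the filter on low counts, 13 when the test was made against no change and 3 with the replicate block. For day 28 it was 11 without the filter, 4 against no change, 0 in 1 fit over all libraries, 1 with uncorrected counts without a batch term and 1 with the library of both day labels at day 12. For days with the sexes averaged it was 11 when tested against a log2 fold change of 1. For ages it was 12 without the filter, 4 with DESeq2, 3 with the 3 day 12 libraries set aside, 0 with uncorrected counts without a batch term and 0 at an adjusted p under 0.05, and for sexes it was 8 without the filter. The replicate block gave 3, 2, 25, 1 and 0 calls in the same order as above, but same-numbered libraries shared only a number: their deviations from the group means correlated by -0.0343 on average over 54 pairs, against 0.0116 over 159 other pairs. Leaving out each of 62 libraries in turn gave 5 to 9, 2 to 3, 23 to 30, 0 to 3 and 0 to 0 calls, with 5 on leaving out either 9-month-old male naive library. The cause of these differences was not tested, except that without the filter genes with few counts enter the fit. Groups of 2 to 4 libraries, a floor of up to 2.04 CPM and a collection day unequal for Cd36 limit all of these values, most of all those of Cd163, Lyve1, Cd5l and Marco.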
